A study of Homo sapiens with 6 samples.

Results

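The 9 genes described here encode the machinery of major histocompatibility complex (MHC) class I antigen presentation: the heavy chains HLA-B, HLA-C, HLA-E, and HLA-F, the light chain B2M, the peptide transporter subunits TAP1 and TAP2, the loading chaperone TAPBP, and the transcriptional regulator NLRC5. They were taken by gene symbol from a table of 60623 genes, where each symbol had 1 row, and all 9 were among the 13966 genes that passed the expression filter and were tested. Expression was measured by RNA-Seq of ribosomal RNA-depleted total RNA in TC28a2 cells, a single immortalized line of human chondrocytes. Cells received 2 μM mocetinostat, an inhibitor of class I histone deacetylases (HDACs), or the solvent DMSO alone, and RNA was collected after 24 hours. Each condition had 3 samples (n = 3), described by the study as independent experiments.

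MHC class I molecules show short peptides from inside the cell to T cells and to natural killer cells. A heavy chain pairs with the light chain B2M in the endoplasmic reticulum, receives a peptide that proteasomes have cut and that the TAP transporter has pumped in, and then moves to the cell surface. Nearly all nucleated cells carry them at some level, and interferons, NF-κB, and NLRC5 are known activators of the genes.

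Totals were 4873426 to 11031132 counts per sample with DMSO and 1619344 to 5089542 with mocetinostat, so that low counts were less precise after treatment. Replicates varied by a biological coefficient of variation of 9.30%. Of 8 chondrocyte markers, 6 were tested and all 6 were higher with mocetinostat, against 32.9% of all tested genes. Among these 6, SOX5 (at most 0.737 CPM with DMSO) and COMP (at most 1.18) passed the expression filter only through the mocetinostat samples. For SOX5 and COMP the filter thus fixed the direction. The sum over the list, in CPM (counts scaled to a common library total), was 108 to 132 with DMSO and 243 to 278 with mocetinostat. Most of the DMSO sum was SOX9, at 95.5 to 122 CPM, and ACAN, the next highest marker, was at 3.96 to 5.31 CPM with DMSO. Of 8 leukocyte and antigen-presenting cell markers, 2 were tested (CD14 and HLA-DRA) and both were higher. Both passed the expression filter only through the mocetinostat samples, with at most 1.36 CPM for CD14 and 0 for HLA-DRA with DMSO. The filter thus fixed the direction of these 2, and the other markers on the list were not tested. The sum over the 8 genes was 2.71 to 4.79 CPM with DMSO and 15.7 to 26.0 CPM with mocetinostat, and the part of these genes in the results was not tested. CD3E had 0 counts in all 6 samples, and PTPRC, carried by leukocytes in general, was at 0 to 1.87 CPM with DMSO and 0 to 1.24 CPM with mocetinostat. In a bulk sample, a different share of cells and a different amount of RNA per cell cannot be told apart.

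The stretches before the annotated starts of the members are shown because several of them share short binding motifs, and because the heavy chains among them rose together. RefSeq windows (GRCh38.p14) were used for 7 of the 9 members, HLA-B, HLA-C, HLA-F, B2M, TAP1, TAP2, and TAPBP, which have 8 windows since TAP1 has 2. For TAP1 only the outer window is printed, and the inner one, which holds the only TTCNNNGAA match, is not. Each stretch reads 5′ to 3′ along the gene and, for HLA-B, HLA-C, HLA-F, B2M, and TAP1, is given as far as it lies outside untranslated regions in GENCODE release 44. For TAP2 and TAPBP the 30 bases around the interferon motif are given, which lie before the RefSeq start but inside untranslated regions of longer GENCODE transcripts, for TAP2 one of a readthrough gene. Capitals mark matches, on either strand, to GAAANNGAA (core of the interferon-stimulated response element), TTCNNNGAA (interferon-γ activated site), GGGNNTTCC or GGGACTTTC (NF-κB), CCAAT (the NF-Y box), and TGACG (the site of CREB and ATF factors), and neighboring or overlapping matches run together.
HLA-B, minus strand, chr6:31357294-31357429: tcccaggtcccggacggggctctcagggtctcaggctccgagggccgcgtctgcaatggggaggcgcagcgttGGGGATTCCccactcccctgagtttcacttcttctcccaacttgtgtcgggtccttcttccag
HLA-C, minus strand, chr6:31272106-31272342: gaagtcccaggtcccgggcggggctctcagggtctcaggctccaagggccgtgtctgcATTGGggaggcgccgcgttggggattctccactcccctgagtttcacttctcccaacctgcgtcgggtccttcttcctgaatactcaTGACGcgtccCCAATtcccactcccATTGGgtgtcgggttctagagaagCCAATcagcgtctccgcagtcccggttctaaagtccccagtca
HLA-F, plus strand, chr6:29723184-29723305: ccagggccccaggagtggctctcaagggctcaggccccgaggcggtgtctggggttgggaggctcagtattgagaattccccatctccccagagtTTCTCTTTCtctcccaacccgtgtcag
B2M, plus strand, chr15:44711324-44711508: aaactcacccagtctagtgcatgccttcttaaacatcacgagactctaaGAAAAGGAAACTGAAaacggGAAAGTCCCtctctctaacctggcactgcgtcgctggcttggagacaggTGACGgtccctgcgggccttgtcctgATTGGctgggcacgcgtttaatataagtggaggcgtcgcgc
TAP1, minus strand, chr6:32853817-32853954: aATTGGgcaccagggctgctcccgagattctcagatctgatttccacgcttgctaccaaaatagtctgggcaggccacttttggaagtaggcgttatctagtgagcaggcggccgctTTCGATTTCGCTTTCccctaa
TAP2, minus strand, chr6:32838779-32838808: gctggggaagcGAAAGCGAAagctgcccga
TAPBP, minus strand, chr6:33314079-33314108: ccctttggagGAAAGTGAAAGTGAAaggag

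In the 250 bases before the start, GAAANNGAA was found in 5 of the 8 member windows (B2M, HLA-F, TAP1, TAP2, and TAPBP) and in 6.88% of all 35116 windows. B2M, TAP1, and TAPBP each held 2 overlapping copies of it. TTCNNNGAA was found in 1 member window, the inner one of TAP1, and in 6.57% of all windows. The NF-κB letters GGGNNTTCC were in the windows of HLA-B and TAPBP and in 5.78% of all windows, and GGGACTTTC was in those of B2M and TAP1 and in 0.325% of all. CCAAT was in 5 member windows and in 32.0% of all, and TGACG in 4 (B2M, HLA-B, HLA-C, and TAP2) and in 21.2% of all. GGGCGG, the letters bound by Sp1 and left in lower case above, was in 5 member windows and in 42.6% of all. GAAANNGAA was shared by a gene that rose (HLA-F), genes that did not pass the test (B2M and TAP1), and genes that fell (TAP2 and TAPBP), as the values below show. GGGACTTTC and TTCNNNGAA were in no available window of a gene that rose. A match describes letters and is not a measured binding site.

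Mocetinostat changed 7 of the 9 genes at an adjusted p under 0.05 by edgeR's quasi-likelihood test. The heavy chains HLA-B, HLA-C, HLA-E, and HLA-F and the regulator NLRC5 rose, the transporter subunit TAP2 and the chaperone TAPBP fell, and B2M and TAP1 did not pass the test. The 5 higher members stood against a background of 32.9% of all tested genes called higher, and the 2 lower ones against 31.4% called lower. With the additional threshold of a log2 fold change over 1, which defines upregulated genes (URGs), 4 members were URGs (HLA-B, HLA-E, HLA-F, and NLRC5), against 20.2% of all tested genes. A total of 0 of the 9 were downregulated genes (DRGs, log2 fold change under −1), against 8.18% of all tested genes, and this count was also 0 at an unadjusted p under 0.05 and with DESeq2. The samples of the 2 conditions did not overlap, and were higher with mocetinostat, for 5 members against 33.7% of all tested genes. They did not overlap and were lower for 2 members against 32.8%. The median log2 fold change was 0.75 over the 9 members and −0.0021 over all tested genes. These directions are relative to the TMM scaling of the libraries: scaling each library to GAPDH, a glycolytic enzyme that itself fell by 0.53 on the log2 scale (adjusted p = 2.58e-12), moved the median log2 fold change of all tested genes by 0.54, and with it 7 members were higher and 1 was lower. GAPDH scaling also moved the share of URGs among all URG and DRG calls from 71.2% to 94.0%, and omitting the expression filter, which moved the median of the same genes by −0.25, gave 60.2%.

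**Figure D1:**
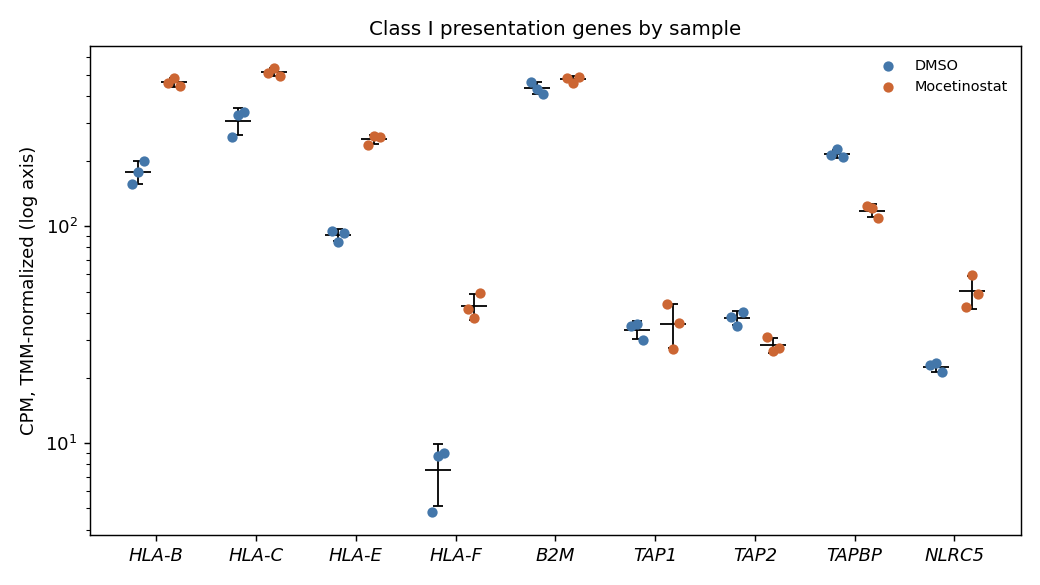
Normalized level (CPM, log axis) of the 9 class I presentation genes in each of the 3 DMSO and 3 mocetinostat samples, with bars for the mean ± SD. With TMM scaling the samples separate upward for HLA-B, HLA-C, HLA-E, HLA-F, and NLRC5, separate downward for TAP2 and TAPBP (for TAP2 the log2 fold change is 0.14 under GAPDH scaling), and overlap for B2M and TAP1.

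HLA-B and HLA-C are classical heavy chains, whose peptides are read by cytotoxic T cells. HLA-B (ENSG00000234745, chr6:31353872-31367067, minus strand) was at 157, 178, and 200 CPM in DMSO replicates 1, 2, and 3 and at 459, 485, and 442 CPM in mocetinostat replicates 1, 2, and 3. The groups were far apart, and every mocetinostat sample was above every DMSO sample. The mean went from 178 ± 21.5 CPM to 462 ± 21.3 CPM (SD, n = 3), a 2.59-fold increase with a 95% interval of 2.32 to 2.90 and a log2 fold change of 1.37 (SE 0.08, adjusted p = 1.93e-24 by edgeR's quasi-likelihood test). HLA-C (ENSG00000204525, chr6:31268749-31272130, minus strand) was the more abundant of the pair with DMSO, at 258, 324, and 337 CPM, and was at 510, 535, and 495 CPM with mocetinostat. Its groups were also apart, with DMSO replicate 1 the lowest sample. The increase was 1.68-fold, or 0.75 on the log2 scale (SE 0.08, adjusted p = 6.08e-13), below the fold threshold for a URG, which it passed under GAPDH scaling (1.27). HLA-B and HLA-C are highly polymorphic and similar to each other, and the treatment of reads that map to several genes is not given in the sources used here, so that the division of reads between them is uncertain.

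HLA-E and HLA-F are nonclassical heavy chains. HLA-E carries peptides from the leader sequences of other class I molecules and is read by receptors of natural killer cells. HLA-E (ENSG00000204592, chr6:30489509-30494194, plus strand) was at 95.4, 84.5, and 93.3 CPM with DMSO and at 238, 260, and 258 CPM with mocetinostat. The groups were far apart and the spread within each was small, with means of 91.1 ± 5.77 and 252 ± 12.2 CPM. The log2 fold change was 1.46 (SE 0.09, adjusted p = 2.23e-23), which is 2.75-fold. HLA-F (ENSG00000204642, chr6:29722775-29738528, plus strand) was the lowest of the heavy chains with DMSO, at 4.79, 8.75, and 8.99 CPM, from 42 to 61 counts per sample. It reached 41.6, 37.8, and 49.3 CPM with mocetinostat, from 61 to 210 counts. DMSO replicate 1 was the lowest sample, and the highest DMSO sample was still far below the lowest mocetinostat sample. HLA-F had the greatest fold change of the 9 members, 6.00-fold with a 95% interval of 4.54 to 7.92 (log2 fold change 2.58, SE 0.20, adjusted p = 1.63e-18). An antisense gene, HLA-F-AS1, shares 12.4% of the exon bases of HLA-F and had 7 to 27 counts with DMSO and 2 to 22 with mocetinostat, and whether the counting used strand is not given in the sources used here.

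B2M, the light chain shared by all of these heavy chains (ENSG00000166710, chr15:44711358-44718851, plus strand), did not pass the test. It was at 463, 428, and 409 CPM with DMSO and at 482, 459, and 489 CPM with mocetinostat. The groups overlapped, since DMSO replicate 1 was above mocetinostat replicate 2. The log2 fold change was 0.14 (SE 0.07, adjusted p = 0.0967 by edgeR's quasi-likelihood test), and the 95% interval of the fold change, 0.995 to 1.22, lay below the increases of HLA-B, HLA-C, HLA-E, and HLA-F. B2M passed the test without DMSO replicate 1 (log2 fold change 0.17, adjusted p = 0.0142) and under GAPDH scaling (0.67, adjusted p = 8.38e-09), which moved all genes upward.

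TAP1 and TAP2 form the transporter that moves peptides from the cytosol into the endoplasmic reticulum. TAP1 (ENSG00000168394, chr6:32845209-32853816, minus strand) was at 34.7, 35.6, and 29.9 CPM with DMSO and at 43.6, 27.3, and 35.6 CPM with mocetinostat. Mocetinostat replicate 1 was the highest and replicate 2, the shallowest library with 44 counts for TAP1, the lowest of the 6 samples. The log2 fold change was 0.15 (SE 0.16, adjusted p = 0.411), with a 95% interval of the fold change from 0.898 to 1.37, and it was −0.07 without mocetinostat replicate 1. TAP2 (ENSG00000204267, chr6:32821833-32838739, minus strand) was at 38.2, 34.8, and 40.4 CPM with DMSO and at 30.7, 26.6, and 27.4 CPM with mocetinostat. All mocetinostat samples were below all DMSO samples, with 43 to 155 counts each. TAP2 fell by 0.40 on the log2 scale (SE 0.16, adjusted p = 0.0200), to 0.757 of its DMSO level. This call was lost at a similar log2 fold change with DESeq2 (−0.44, adjusted p = 0.0673) and without DMSO replicate 3 (−0.38, adjusted p = 0.0510) or mocetinostat replicate 3 (−0.38, adjusted p = 0.0524). It was also lost at a smaller one with libraries thinned to equal totals (−0.22, adjusted p = 0.547), and GAPDH scaling turned the sign (0.14, adjusted p = 0.460).

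TAPBP encodes tapasin, which holds an empty class I molecule next to the transporter while a peptide is chosen. TAPBP (ENSG00000231925, chr6:33299694-33314284, minus strand) was at 214, 226, and 209 CPM with DMSO and at 124, 121, and 109 CPM with mocetinostat. Every mocetinostat sample was below every DMSO sample, by far more than the spread within either group. The log2 fold change was −0.87 (SE 0.09, adjusted p = 5.00e-13), to 0.548 of the DMSO level, and TAPBP was lower with adjusted p under 0.05 in all 13 alternative settings, from −1.12 without the expression filter to −0.34 under GAPDH scaling. A noncoding gene on the opposite strand shares 21.0% of its exon bases and was not used here.

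NLRC5 is a transactivator that binds, through the RFX complex, to the promoters of class I genes and of their partners. NLRC5 (ENSG00000140853, chr16:56989485-57083531, plus strand) was at 23.0, 23.3, and 21.2 CPM with DMSO and at 42.6, 59.5, and 48.5 CPM with mocetinostat. The DMSO samples lay close together, and mocetinostat replicate 2 was the highest sample. Its increase was 2.17-fold, from 22.5 ± 1.13 to 50.2 ± 8.56 CPM (log2 fold change 1.12, SE 0.16, adjusted p = 2.80e-09). NLRC5 kept an adjusted p under 0.05 in all 13 alternative settings but was below the fold threshold for a URG without mocetinostat replicate 2 (0.98) and without the expression filter (0.87).

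**Figure D2:**
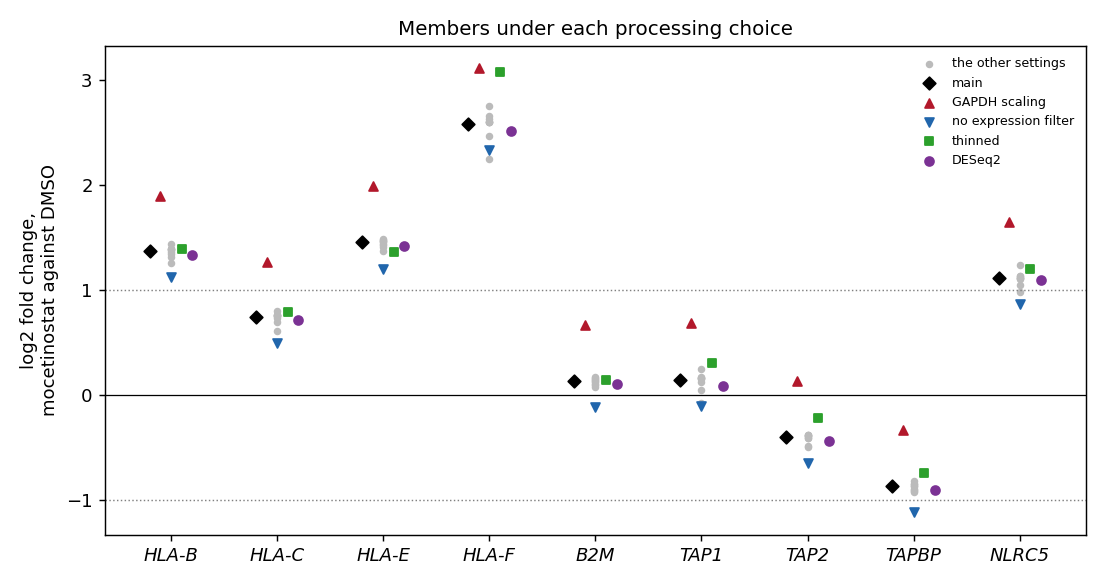
Log2 fold change (mocetinostat against DMSO) of each of the 9 genes in the reported analysis and under 13 alternative settings, with dotted lines at −1 and 1. HLA-B, HLA-C, HLA-E, HLA-F, and NLRC5 stay above 0 and TAPBP below 0 under all of them, while B2M and TAP1 fall below 0 without the expression filter and TAP2 lies at 0.14 under GAPDH scaling.

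To compare levels between genes, CPM was divided by the length of the canonical transcript to give CPM per kilobase of transcript (RPKM). With DMSO the order was B2M (459 RPKM), HLA-C (199), HLA-B (116), TAPBP (62.7), HLA-E (35.8), TAP1 (12.4), TAP2 (6.70), HLA-F (5.07), and NLRC5 (3.32). HLA-F and NLRC5 overlapped with each other, TAP2 and HLA-F differed by 1.62 RPKM with an SD of 1.59 for HLA-F, and the other neighbors were apart. With mocetinostat the order was B2M (506 RPKM), HLA-C (333), HLA-B (301), HLA-E (98.9), TAPBP (34.2), HLA-F (29.0), TAP1 (13.2), NLRC5 (7.40), and TAP2 (5.01), and of these neighbors TAPBP and HLA-F overlapped. HLA-E thus passed TAPBP, HLA-F and NLRC5 passed TAP2, and HLA-F also passed TAP1. TAP2 shares 19.5% of its exon bases with another protein-coding gene on the same strand, and HLA-B shares 30.7% with a pseudogene on its strand. The overlapping gene and pseudogene each had 0 counts in all 6 samples. How reads in shared bases were counted is not given in the sources used here, so the levels of TAP2 and HLA-B are uncertain to that extent. B2M, HLA-C, and HLA-B held the first 3 places in both conditions.

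The heavy chains were then compared with each other and with their partners by the ratio of raw counts within each sample, which no scaling of the libraries can move. The 8 pairs were chosen after the values were seen, and with 3 samples against 3 the exact two-sided permutation test cannot give a p below 0.1. The ratio of HLA-B to HLA-C counts was 0.608, 0.550, and 0.593 with DMSO and 0.901, 0.905, and 0.894 with mocetinostat (exact permutation p = 0.1, 0.114 adjusted over 8 pairs). Every mocetinostat sample thus had a higher ratio than every DMSO sample, within the limit on dividing reads between the pair. HLA-B to B2M went from 0.339, 0.417, and 0.488 to 0.953, 1.06, and 0.904, so that raw counts of this heavy chain came close to those of the light chain. Raw counts are not corrected for transcript length, and by RPKM HLA-B (301) stayed below B2M (506) with mocetinostat. HLA-E and HLA-F also gained on HLA-C, by 0.72 and 1.81 on the log2 scale, and HLA-C gained 0.61 on B2M. TAPBP lost ground to TAP1, from 6.16, 6.35, and 6.98 to 2.85, 4.45, and 3.05. For these 6 pairs the ranges of the 2 conditions did not overlap, and each had the smallest p the test can give. TAP2 to TAP1 overlapped between the conditions (exact permutation p = 0.2).

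**Figure D3:**
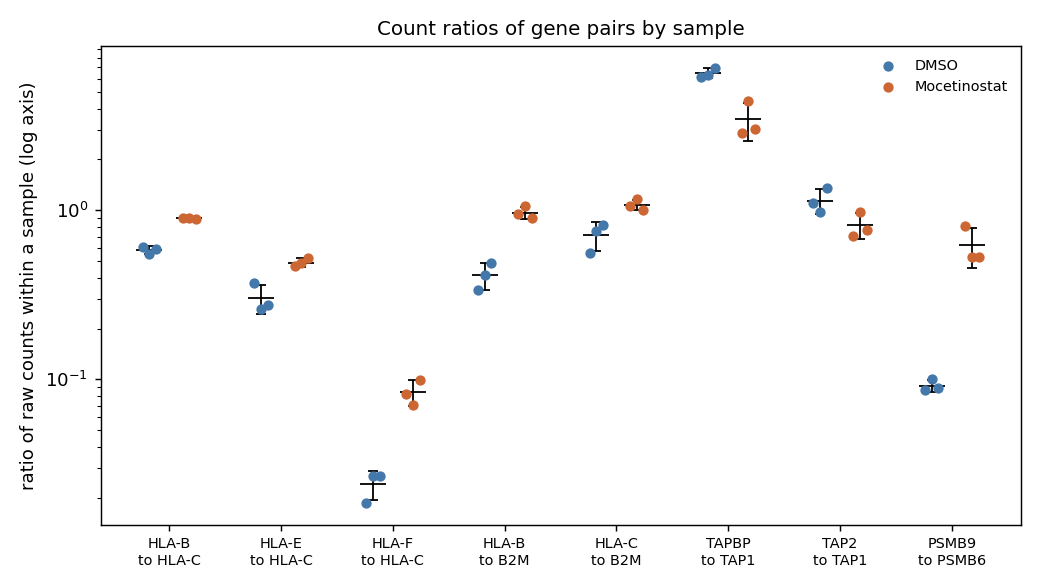
Ratio of raw counts of 2 genes within each sample (log axis) for 8 pairs, with 3 DMSO and 3 mocetinostat samples and bars for the mean ± SD. The 3 heavy chain pairs and the 2 pairs with B2M shift upward without overlap, TAPBP to TAP1 shifts downward, TAP2 to TAP1 overlaps, and PSMB9 to PSMB6 shows the greatest shift.

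The other genes of the pathway were taken as 7 lists with 54 genes, of which 51 were tested. In all, 15 were higher and 17 lower at an adjusted p under 0.05 and 19 did not pass, with 7 URGs and 7 DRGs and a median of −0.01 on the log2 scale. The 29.4% higher and 33.3% lower were near the 32.9% and 31.4% of all tested genes. The 13.7% that were URGs lay below 20.2%, and the 13.7% that were DRGs lay above 8.18%. Under GAPDH scaling there were 14 URGs and 2 DRGs, so that the split depends on the scaling. The lists differed from one another in direction, as follows.

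Class I-like molecules share the fold of the heavy chains and serve other purposes, among them the display of stress to natural killer cells. Of 9 tested, 7 were higher, 1 was lower, and 6 were URGs, against 32.9%, 31.4%, and 20.2% of all tested genes. CD1D and FCGRT, both counted as URGs, passed the expression filter only through the mocetinostat samples, so that the filter fixed their direction. Under GAPDH scaling 8 of the 9 were higher and 0 lower. The median over these 9 was 1.40 on the log2 scale. MICA and MICB, stress ligands of an activating natural killer receptor, lie next to HLA-B on the chromosome. MICA was at 42.1 to 42.6 CPM with DMSO and 97.9 to 126 CPM with mocetinostat (log2 fold change 1.40, adjusted p = 3.64e-17). MICB was at 20.0 to 26.4 CPM and 87.0 to 121 CPM (2.11, adjusted p = 5.85e-23). The related ligands ULBP1 (log2 fold change 2.57), ULBP2 (0.94), and ULBP3 (1.37) rose as well, the first of them from a mean of 7.35 to a mean of 43.1 CPM. CD1D, which presents lipids, had a log2 fold change of 4.66 from at most 0.362 CPM with DMSO, and FCGRT, the neonatal Fc receptor, one of 1.42 at levels under 5 CPM. This call was lost in 6 of the 12 alternative settings that tested it, with log2 fold changes there of 1.15 to 1.43. HFE, a regulator of iron uptake, fell (−1.08), a call lost under GAPDH scaling (−0.54, adjusted p = 0.172) and with thinned libraries (−1.01, adjusted p = 0.146). MR1, at 1.47 to 7.05 CPM over all samples, did not pass (0.60, adjusted p = 0.210).

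Proteasomes supply the peptides, and the immunoproteasome subunits PSMB8, PSMB9, and PSMB10 can replace the constitutive subunits PSMB5, PSMB6, and PSMB7. PSMB9, which stands in for PSMB6, was at 9.86, 12.7, and 11.6 CPM with DMSO and at 26.8, 23.5, and 23.2 CPM with mocetinostat (log2 fold change 1.14, SE 0.20, adjusted p = 1.37e-06). PSMB6 itself fell from 114, 127, and 132 CPM to 32.9, 44.6, and 43.9 CPM (−1.66, SE 0.13, adjusted p = 1.37e-19). The ratio of PSMB9 to PSMB6 counts therefore went from 0.0863, 0.100, and 0.0885 to 0.813, 0.528, and 0.528 (exact permutation p = 0.1). The other constitutive partners were also DRGs, with log2 fold changes of −1.33 for PSMB5 and −1.08 for PSMB7. PSMB8 did not pass the test (−0.19, adjusted p = 0.300), although its gene lies beside TAP1 and PSMB9. PSMB10 had 31, 17, and 11 counts with DMSO and 0 in each mocetinostat sample, at least 7.86-fold lower when 3 counts over the treated group are taken as the floor, and did not pass the expression filter. PSMB10 was called lower by edgeR without that filter (log2 fold change −6.88, adjusted p = 4.19e-06) and with DESeq2 (−5.31, adjusted p = 0.00136). Another protein-coding gene on the same strand shares 39.4% of its exon bases. Of the proteasome activator subunits, PSME2 fell (−0.77, but −0.23 with adjusted p = 0.135 under GAPDH scaling) and PSME1 did not pass (0.03, adjusted p = 0.845).

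Among 8 genes of peptide loading and trimming in the endoplasmic reticulum, 1 was higher, 2 were lower, and 5 did not pass. Over all tested genes, 32.9% were higher and 31.4% were lower. In this list 5 were higher under GAPDH scaling, and 0 were higher and 5 lower without the expression filter. CALR, the chaperone calreticulin, rose by 0.37 on the log2 scale, a call lost without the expression filter (0.12, adjusted p = 0.200). UGGT1, which checks glycoprotein folding, had −0.29 and BCAP31, an export receptor, −0.51. Under GAPDH scaling UGGT1 was called higher (0.24, adjusted p = 0.0242) and BCAP31 was at 0.026 (adjusted p = 0.857). With thinned libraries both calls were lost (adjusted p = 0.0615 for UGGT1 and 0.101 for BCAP31). The loading partners CANX (0.04, adjusted p = 0.623) and PDIA3 (0.03, adjusted p = 0.743) did not pass. Tapasin was thus the gene of the loading complex with the greatest decrease among those tested.

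Interferon signaling is the main known inducer of class I genes. Of 11 tested genes in this list, 5 were higher, 2 were lower, and 4 did not pass, and IRF9 was too low to be tested. Over all tested genes, 32.9% were higher, 31.4% were lower, and 20.2% were URGs. The list held 0 URGs by edgeR, also at an unadjusted p under 0.05 and with DESeq2, but 1 with thinned libraries (IRF1, at 1.03) and 4 under GAPDH scaling. IRF1, an interferon-induced activator of class I promoters, was at 44.7 to 52.5 CPM with DMSO and 73.0 to 85.8 CPM with mocetinostat (log2 fold change 0.69, SE 0.12, adjusted p = 1.53e-06 by edgeR's quasi-likelihood test). The receptor chains went apart, since IFNGR1 (0.83) and IFNAR2 (0.73) rose and IFNGR2 fell (−1.10). The IFNAR2 call was lost without the expression filter (0.47, adjusted p = 0.0510) and with thinned libraries (0.39, adjusted p = 0.327). The kinase JAK1 was at 0.23 (adjusted p = 0.0214), a call lost in 6 of the 13 alternative settings. JAK2 fell (−0.54), a call lost under GAPDH scaling, with thinned libraries (−0.53, adjusted p = 0.181), and without DMSO replicate 1 (−0.38, adjusted p = 0.0578).

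Of 10 tested factors that bind class I promoters, 0 were higher by edgeR's quasi-likelihood test, also at an unadjusted p under 0.05 and with DESeq2. Higher calls made up 32.9% of all tested genes. Of the 10 factors, 7 were lower and 2 of these were DRGs, against 31.4% and 8.18% of all tested genes. Without mocetinostat replicate 1, and with thinned libraries, 4 were lower. Without mocetinostat replicate 3, 1 was higher, and under GAPDH scaling 2 were higher and 2 lower. NFKB1, an NF-κB subunit, went from 68.3, 63.9, and 67.8 CPM to 22.2, 13.6, and 19.9 CPM (log2 fold change −1.77, SE 0.15, adjusted p = 5.71e-17). ATF1 had a log2 fold change of −1.23, and RFXANK, a subunit of the RFX complex through which NLRC5 acts, −0.58 (−0.05 under GAPDH scaling). RFX5, the subunit that contacts DNA, did not pass (0.27, adjusted p = 0.0897). Of 3 subunits of PRC2, a complex that silences genes, 1 was lower and 2 did not pass. Under GAPDH scaling 2 of these subunits were higher and 0 lower, and with thinned libraries 0 were called in either direction. Of 3 genes for the turnover of class I at the surface, SUSD6 was higher (0.54), and TMEM127 and WWP2 did not pass. The SUSD6 call was lost without the expression filter and with thinned libraries, and under GAPDH scaling all 3 genes were higher.

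**Figure D4:**
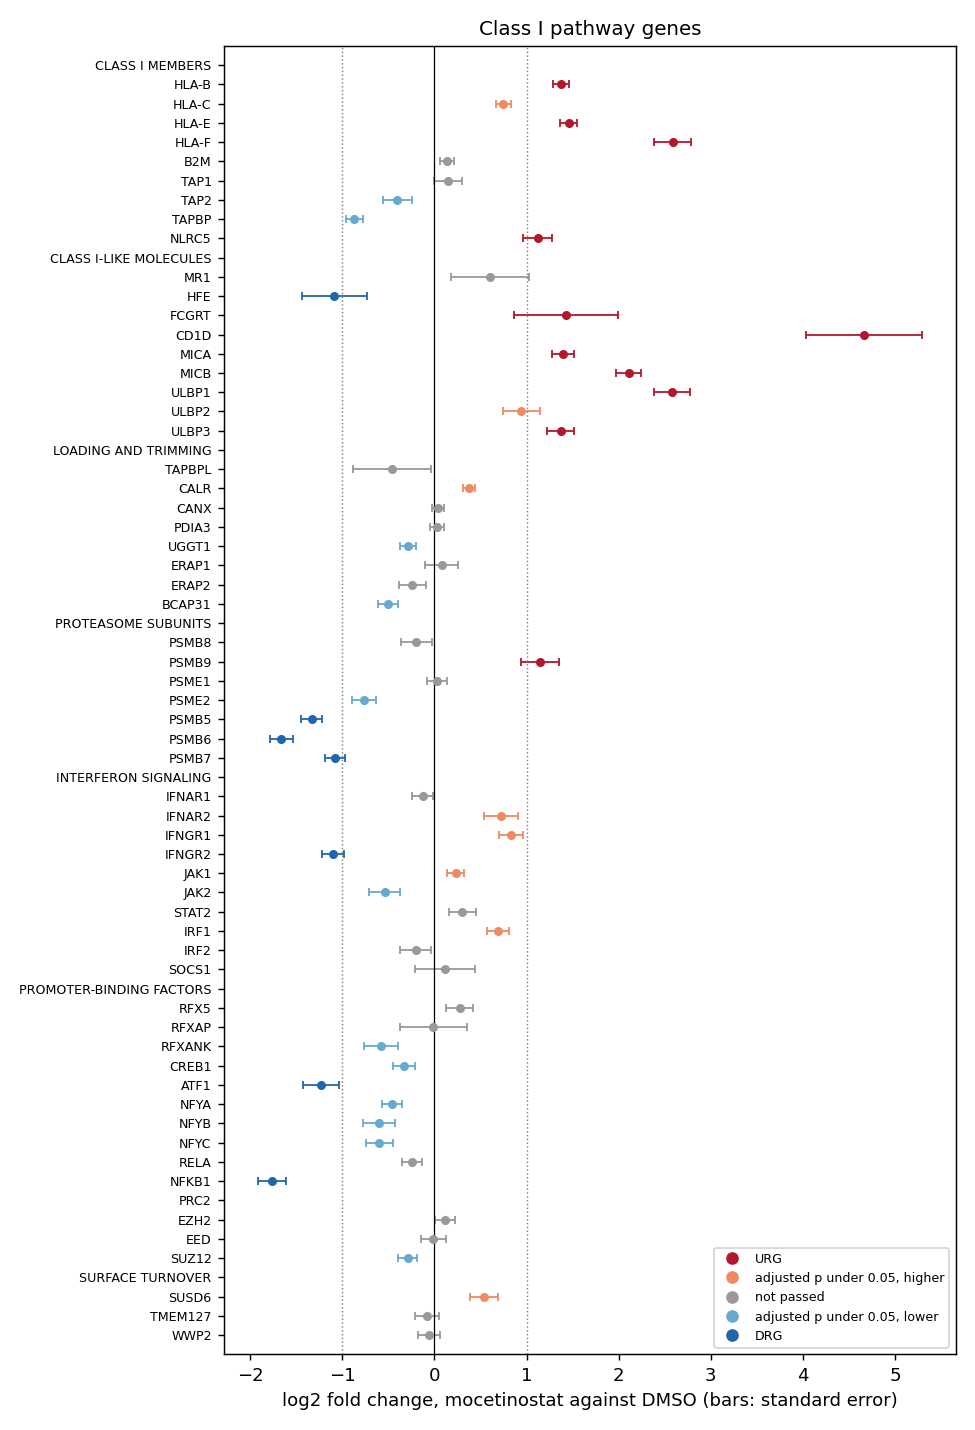
Log2 fold change (mocetinostat against DMSO) with its SE for the 9 members and the tested genes of 7 pathway lists except 1 not shown here, colored by call, with dotted lines at −1 and 1. Most class I-like molecules lie right of 0 with the heavy chains, and the constitutive proteasome subunits and most promoter-binding factors lie left of it, under TMM scaling.

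Of the members, 7 lie in the MHC region of chromosome 6, and the genes around them were examined next. From the first to the last of them, at chr6:28570535-33457544 (GRCh38), the region held 104 tested genes. Without the 7 members, 97 remained, of which 15 were URGs (15.5%) and 5 were DRGs (5.15%), with 22 higher and 31 lower at an adjusted p under 0.05 and a median log2 fold change of −0.12. These shares lay below the 20.2% and 8.18% of all tested genes, and 22.7% higher and 32.0% lower stood against 32.9% and 31.4%. TAP2 (−0.40), PSMB8 (−0.19, not passed), PSMB9 (1.14), and TAP1 (0.15, not passed) followed one another in this order along the chromosome. Among the other genes, IER3, an early stress response gene, rose by 1.70 on the log2 scale, MICB by 2.11, and the class II gene HLA-DQB1 by 6.58. VPS52, a subunit of a vesicle tethering complex, was at −1.62, the transcription factor PBX2 at −1.43, and the chloride channel gene CLIC1 at −1.02.

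**Figure D5:**
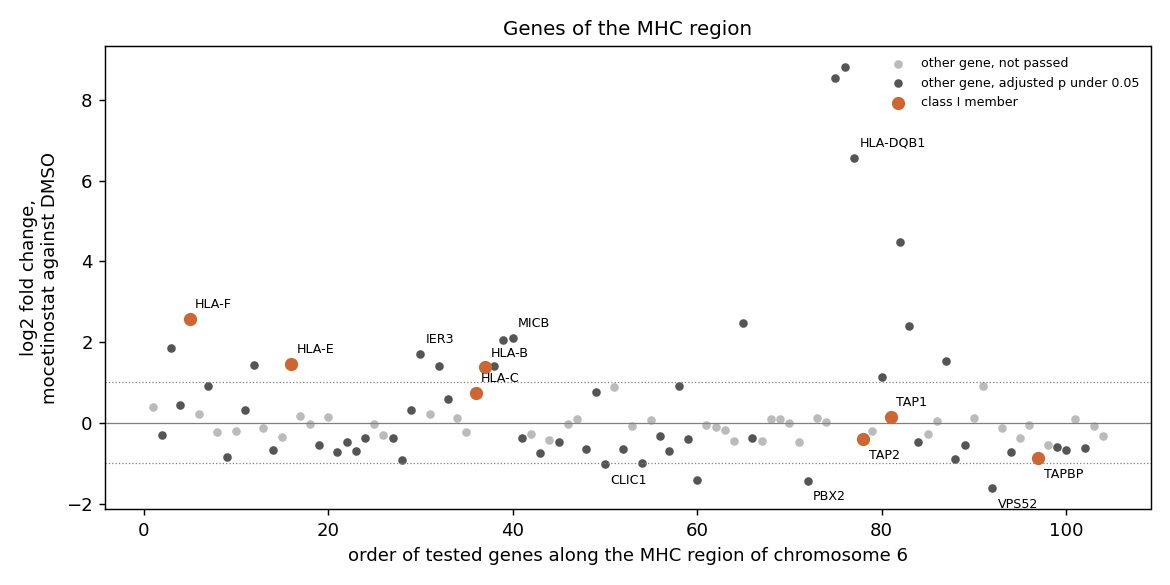
Log2 fold change (mocetinostat against DMSO) of the 104 tested genes of the MHC region of chromosome 6 in their order along it, with the 7 members there in orange. HLA-F, HLA-E, HLA-B, and HLA-C lie above 0 and TAP2 and TAPBP below 0 among neighbors of both directions, and the points near 8 are class II genes without DMSO counts, whose fitted height depends on the prior count.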

How the data were processed

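RNA was taken from 6 TC28a2 samples, 3 per condition. The authors deposited raw counts of reads per gene, without normalization. According to the study's methods and processing notes, they trimmed the single reads, removed ribosomal RNA reads, aligned the rest to GRCh38 with STAR 2.6.1d, counted genes with featureCounts 1.6.4, and tested with DESeq2 1.20.0. Strand and multimapping settings are not given in the sources used here. All columns were matched to samples by name.

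From the counts, edgeR 4.0.16 (limma 3.58.1, R 4.3.3) fitted treatment alone, after TMM scaling and its filterByExpr step (minimum count 10), which left 13966 of 60623 genes, with its quasi-likelihood test and Benjamini-Hochberg adjustment over all tested genes. URGs and DRGs had an adjusted p under 0.05 and a log2 fold change over 1 or under −1, as in the study. CPM used TMM factors. Intervals are at 95%, and floors of 3 counts cover counting error only. Replicates of a condition differed by more than sampling noise (chi-square per degree of freedom 1.96 to 7.19). Python 3.11.15 made the summaries. Positions and overlaps are from GENCODE release 44 (99.5% of identifiers matched), and promoter windows are from RefSeq. The fits were tested on simulated counts.

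All members, any gene of the pathway lists, GAPDH, and in the MHC region the 3 URGs and 3 DRGs with the smallest p at a mean of at least 10 CPM were named, except that 1 pathway gene is not reported here. Class II genes and count ratios were chosen after their values were seen, and members and lists were chosen with earlier results of these data known. The 13 alternatives were DESeq2 1.42.0, RLE size factors, library size only, GAPDH scaling, no filter, thinning to 1619344 counts, the replicate number as a block, and each sample left out in turn.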

Additional observations from a re-analysis of the deposited data

How the results depend on the processing

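HLA-B, HLA-C, HLA-E, HLA-F, TAPBP, and NLRC5 had the same direction and an adjusted p under 0.05 in all 13 alternatives, and 106 of 117 member values were unchanged in direction and call. The counts of members moved as follows, and the cause was not tested except where named. Member URGs were 5 under GAPDH scaling, HLA-C being the added one, and 3 without the filter and without mocetinostat replicate 2, where NLRC5 was below the fold threshold. Higher members were 7 under GAPDH scaling and 6 without DMSO replicate 1. Lower members were 1 instead of 2 with GAPDH scaling, with thinned libraries, and with DESeq2, and 1 to 2 when a sample was left out. Without the expression filter 1 member, TAPBP, was a DRG. GAPDH scaling, which shifts all genes upward, gave 14 pathway URGs and 2 pathway DRGs, 4425 URGs and 284 DRGs among all genes, and log2 fold changes of 0.67 for B2M (adjusted p = 8.38e-09), 0.69 for TAP1 (adjusted p = 0.000269), 0.14 for TAP2 (adjusted p = 0.460), 0.026 for BCAP31, 0.24 for UGGT1, and 0.005 for JAK2. Without the filter there were 2120 DRGs, and log2 fold changes were −0.11 for B2M, −0.10 for TAP1, and −0.023 for JAK1. When a sample was left out, TAP1 ranged from −0.0745, without mocetinostat replicate 1, to 0.249, without mocetinostat replicate 2. Thinning every library to 1619344 counts, which leaves fewer reads, gave 1873 URGs. With the replicate number as a block, 2798 genes were URGs and 1133 DRGs, and the members again gave 4 URGs, 5 higher and 2 lower. Same-numbered samples correlated by −0.0162 to 0.0116 in their deviations, so the numbers were not taken as pairs. Depth limits the precision of HLA-F, TAP1, and TAP2, whose lowest counts in a library were 42, 44, and 43.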

Other observations

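The class II genes, which present peptides taken up from outside the cell and are mostly limited to antigen-presenting cells, share the region with the class I genes and were described after their values were seen. HLA-DRA had 0 counts in the 3 DMSO samples and 38, 20, and 18 counts with mocetinostat, at least 63.4-fold higher when 3 counts over the DMSO group are taken as the floor. HLA-DRB1 also had 0 counts in every DMSO sample and was at least 80.1-fold higher. HLA-DQB1, at 3, 0, and 3 counts in the solvent controls, reached 148, 39, and 67 counts after treatment. In contrast, HLA-DPB1 (log2 fold change 0.04, adjusted p = 0.889) and HLA-DPA1 (−0.27, adjusted p = 0.514) did not pass edgeR's quasi-likelihood test. CIITA, the class II counterpart of NLRC5, went from 13, 3, and 11 counts to 21, 6, and 18 counts in libraries of smaller totals (log2 fold change 2.08, SE 0.50, adjusted p = 0.000196), at 0.625 to 1.62 CPM with DMSO and 3.72 to 7.46 CPM with mocetinostat. HLA-DRA, HLA-DRB1, HLA-DQB1, and CIITA passed the expression filter only through the mocetinostat samples, so that the filter fixed their direction. With mocetinostat the CPM of HLA-DRA, 7.46 to 12.4, was well below that of HLA-E, 238 to 260.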
